A study of Rattus norvegicus with 24 samples.

Results

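Tgfbi, the 3 TGF-beta ligands, their receptors, the latent binding proteins Ltbp1 and Ltbp2 and the inhibitor Smad7 were followed in rat hearts under metformin, a biguanide drug used in type 2 diabetes. The 10 genes were Tgfbi, Tgfb1, Tgfb2, Tgfb3, Tgfbr1, Tgfbr2, Tgfbr3, Smad7, Ltbp1 and Ltbp2. They were listed by name. Tgfbi was selected on its measured level, which was lower in metformin hearts in an earlier analysis of these same arrays, so its metformin differences are given as a description, with no test. Of the 10 genes, 9 had a transcript cluster, a set of probes summarised as 1 value, annotated with that symbol alone, and all 9 lay above the array's median on each of the 24 arrays. Tgfbr2 is not analysed here. The whole table held 22037 named genes, of which 16031 were tested.

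The animals were male rats of the outbred Wistar stock RccHan, 7 to 8 weeks old by the labels. They were gavaged daily with metformin at 800 mg/kg or with the vehicle alone, a mix of ethanol, Kolliphor HS 15 and tap water, for 1, 3 or 14 days. All 6 groups, control and metformin on each day, therefore received the vehicle, and no ungavaged group was included. The RNA was from left ventricular apex, and each of the 24 arrays, 4 per group, is 1 sample. The protocol gives 5 animals per group. Day is tied to age and to the length of dosing, and these cannot be told apart. The tissue was not sorted by cell type, so fewer cells of a type and less RNA per cell cannot be told apart either. All 7 cardiomyocyte markers with a value were tested, and their mean log2 level ran from 16.45 to 17.15 over the 24 arrays against array medians of 4.68 to 4.95.

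The TGF-beta ligands are secreted bound to a propeptide and held in the matrix by latent TGF-beta binding proteins until proteases, integrins or mechanical force release them. The free ligand assembles type II and type I receptors, and the type I receptor kinase phosphorylates Smad2 and Smad3, which enter the nucleus with Smad4 and change transcription. In the heart the pathway is best known for fibroblast activation and matrix deposition after injury. Tgfbi, named for its induction by TGF-beta, encodes a secreted matrix protein with fasciclin domains that binds integrins and collagens.

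Tgfbi was lower in metformin hearts than in vehicle hearts on each day. In control hearts its log2 intensity was 11.49, 11.26, 11.19 and 11.41 on day 1, then 11.26, 11.45, 11.01 and 11.33 on day 3, and 11.26, 10.80, 10.97 and 10.97 on day 14. In metformin hearts it was 10.98, 10.98, 10.70 and 10.92 on day 1, then 10.19, 10.89, 10.99 and 10.76 on day 3, and 10.65, 10.57, 10.77 and 10.41 on day 14. On each day every metformin array lay below every control array of that day. The group means in descending order were 11.34 ± 0.14 (SD, n = 4) in control day 1, 11.26 ± 0.18 in control day 3, 11.00 ± 0.19 in control day 14, 10.90 ± 0.13 in metformin day 1, 10.71 ± 0.36 in metformin day 3 and 10.60 ± 0.15 in metformin day 14. Groups next to each other in this order overlapped, so the lowest control group and the highest metformin group, which come from different days, were not separated.

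The difference in Tgfbi, metformin minus control, was -0.44 (SE 0.14) on day 1, -0.55 (SE 0.14) on day 3 and -0.40 (SE 0.14) on day 14 on the log2 scale. These are 1.36-fold, 1.47-fold and 1.32-fold lower levels. The mean over the days was -0.47 (SE 0.08), or 1.38-fold lower. Because the gene was chosen for this pattern, nothing is read from it. For scale, 27 of 16031 genes (0.168%) were lower without overlap on each of the 3 days. Groups did not overlap, in either direction, for 4.56% of genes on day 1, 6.37% on day 3 and 6.13% on day 14.

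**Figure D1:**
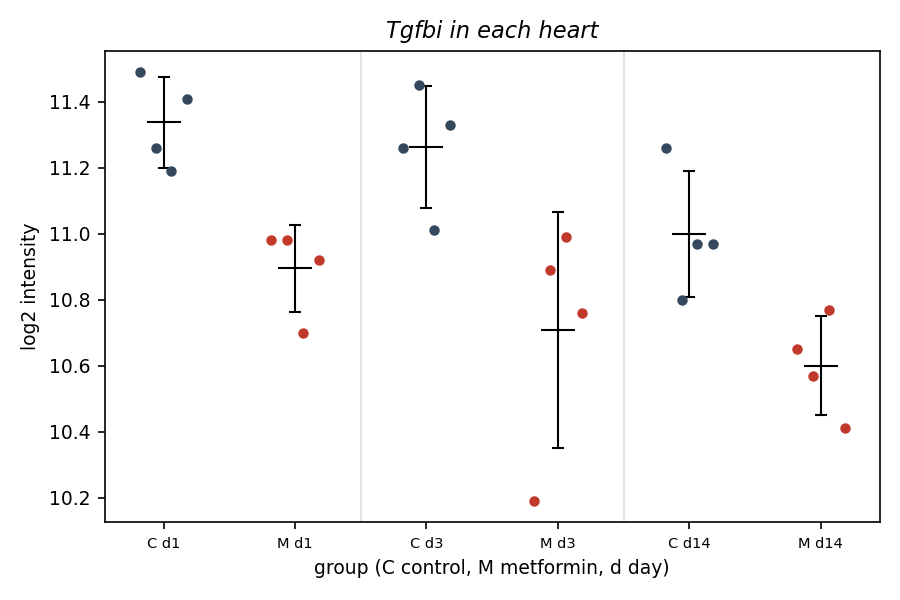
Log2 intensity of Tgfbi on each of the 24 arrays by day, with control and metformin hearts side by side. Points are arrays (control dark, metformin red), and horizontal lines are group means with SD (n = 4). On each day all 4 metformin arrays sit below all 4 control arrays, and both arms are lower on day 14 than on day 1.

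Blood marker lists had medians below 0 in metformin hearts on days 1 and 3 and near 0 on day 14, with no marker called. All 9 tested erythroid markers were lower in metformin hearts on day 1 (median difference -1.17) and on day 3 (-0.51), and 5 of 9 were lower on day 14 (-0.03), with 0 of 9 called on any day. The mean level of the list ran from 12.42 to 13.52 in control and from 11.49 to 12.63 in metformin arrays on day 1. On day 3 it ran from 11.87 to 13.72 and from 11.50 to 12.22, and on day 14 from 10.49 to 12.50 and from 10.83 to 12.35. With that level as a covariate the Tgfbi difference was -0.25 on day 1, -0.46 on day 3 and -0.39 on day 14. Of 4 platelet markers 4 were lower on day 1 (median -0.54), 3 on day 3 (-0.30) and 2 on day 14 (0.01), with 0 called. Over the mean of days all 7 skeletal muscle markers were lower (median -0.14, 1 called), as were all 5 mesothelial markers (-0.09, 0 called). Of the 7 skeletal muscle markers 7 were lower on day 1 (median -0.51), 1 on day 3 (0.04) and 1 on day 14 (0.06). Control day 1 replicate 4 was high in that list (8.29 against a group mean of 6.86). Of the 5 mesothelial markers 4 were lower on day 1 (median -0.21), 4 on day 3 (-0.10) and 3 on day 14 (-0.08). The part of these markers in the Tgfbi difference was not tested beyond the erythroid covariate.

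Fibroblasts make much of the cardiac matrix. Of their 8 markers 1 was lower in metformin hearts on day 1 (median 0.18), 5 on day 3 (-0.06) and 7 on day 14 (-0.17). Of 6 endothelial markers 2 were lower on day 1 (median 0.02), 1 on day 3 (0.23) and 5 on day 14 (-0.13). Of 10 macrophage markers 2 were lower on day 1 (median 0.05), 7 on day 3 (-0.06) and 2 on day 14 (0.09). In these lists 0 markers were called. With the fibroblast level as a covariate the mean Tgfbi difference was -0.47, with the macrophage level -0.49 and with the endothelial level -0.46. Control day 1 replicate 4 stood apart in skeletal muscle markers, with a list level of 8.29 against a group mean of 6.86. Leaving out any 1 array moved the mean Tgfbi difference between -0.50 and -0.41.

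Within each arm Tgfbi had its lowest mean on day 14, and no change with time passed the test. In control hearts day 14 minus day 1 was -0.34 (95% interval -0.63 to -0.05, limma adjusted p = 0.363). In metformin hearts it was -0.30 (interval -0.59 to -0.01, limma adjusted p = 0.404). By that contrast 0 of 9 members were called in either arm, against 0.381% of all genes in controls and 0.405% in metformin hearts. Whether the arms differ in their course was not tested for this gene, since that test uses the metformin difference.

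The start of Tgfbi is shown because its level is the one the account turns on. The sequence is from RefSeq (assembly GRCr8), a window of 300 bases around the annotated start, at chr17:7990064-7990363 on the minus strand, with GC boxes (GGGCGG or its reverse complement CCGCCC) in capitals.

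Tgfbi: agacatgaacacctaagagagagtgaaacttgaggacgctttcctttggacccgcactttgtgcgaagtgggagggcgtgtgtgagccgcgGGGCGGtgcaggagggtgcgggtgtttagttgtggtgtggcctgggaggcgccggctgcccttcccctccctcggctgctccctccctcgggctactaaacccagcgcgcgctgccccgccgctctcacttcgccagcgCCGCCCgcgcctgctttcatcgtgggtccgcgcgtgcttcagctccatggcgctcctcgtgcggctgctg

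Both GC boxes lie upstream of the start used for the window, at -159 and -20. The annotated gene reaches 7990234, inside the window, and from that end only the first box lies upstream. A GC box occurs in 33.1% of 33469 rat promoters of this length and in 6 of the 10 genes followed here. Neither the Smad palindrome GTCTAGAC, found in 0.197% of promoters, nor CAGACA, found in 21.1%, occurs in any of the 10 windows on either strand. The AP-1 site TGACTCA (4.63%) and the TATA motif TATAAA (14.2%) were likewise found in 0 of 10. The CRE palindrome TGACGTCA (1.83%) was found in 1 of 10, Ltbp1. These are letter matches in a short window and say nothing of binding.

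The other 8 measured genes did not pass the test in any comparison of metformin with control. By limma with Benjamini-Hochberg adjustment over 16031 genes, 0 of 8 were called on day 1, when 0% of all genes were called, and 1 of 8 had an unadjusted p under 0.05 (6.72% of all genes). On day 3 the count was 0 of 8 (0.474% of all genes), with 0 at an unadjusted p under 0.05 (11.2%). On day 14 it was 0 of 8 (0.281%), with 2 at an unadjusted p under 0.05 (12.7%). Over the mean of days it was 0 of 8 (4.42%), with 2 at an unadjusted p under 0.05 (18.3%). On no day did the arms separate for any of the 8. Over all genes they separated for 4.56% on day 1, 6.37% on day 3 and 6.13% on day 14, so few or none of 8 would be looked for. The 95% intervals of the 8 mean differences together ran from -0.35 to 0.40. Those of single days were wider, from -0.67 to 0.73 on day 1, -0.48 to 0.78 on day 3 and -0.63 to 0.79 on day 14.

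Among the ligands, Tgfb1, the form most often tied to cardiac fibrosis, did not differ detectably between arms. Its log2 level ran from 8.21 to 9.36 in control arrays and from 8.47 to 9.33 in metformin arrays, and the arms overlapped throughout. The mean difference was 0.12 (interval -0.15 to 0.40, limma adjusted p = 0.67).

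Tgfb3, a ligand that acts in development and in wound repair, was lowest in metformin hearts on day 14. Its levels there were 8.21, 8.53, 8.97 and 8.70, against 9.08, 8.81, 8.87 and 8.90 in control hearts of that day. The groups overlapped through the metformin array at 8.97. Fibroblast and endothelial markers had lower medians on the same day, as given above. With either marker level as a covariate, 0 members were called for metformin against control on day 14. Beyond that, the part of these markers in the Tgfb3 and Tgfbr3 values was not tested. The difference was -0.32 (interval -0.63 to -0.01, limma adjusted p = 0.384). Within metformin hearts, where day 1 gave 8.97, 9.24, 9.19 and 8.85, day 14 minus day 1 was -0.46 (interval -0.77 to -0.15, limma adjusted p = 0.198), and in controls it was -0.16 (interval -0.47 to 0.15). With the macrophage marker level as a covariate the metformin value was -0.49 and the limma adjusted p 0.0471. That covariate was chosen after seeing the data, and no other alternative called this difference. The share of all genes called by this contrast with that covariate is not given here. Over the mean of days that covariate raised the calls among all genes from 708 to 845.

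Tgfb2, the ligand that depends most on the co-receptor Tgfbr3, was most variable in metformin hearts on day 14. Its levels there were 7.30, 8.28, 7.94 and 7.27, so that replicates 2 and 3 were above every other array of the study and replicates 1 and 4 were within the control range. Control hearts of that day gave 7.35, 7.16, 7.56 and 7.27. The difference was 0.36 (interval -0.07 to 0.79, limma adjusted p = 0.504). Metformin day 14 minus day 1 was 0.53 (interval 0.10 to 0.97, limma adjusted p = 0.299).

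**Figure D2:**
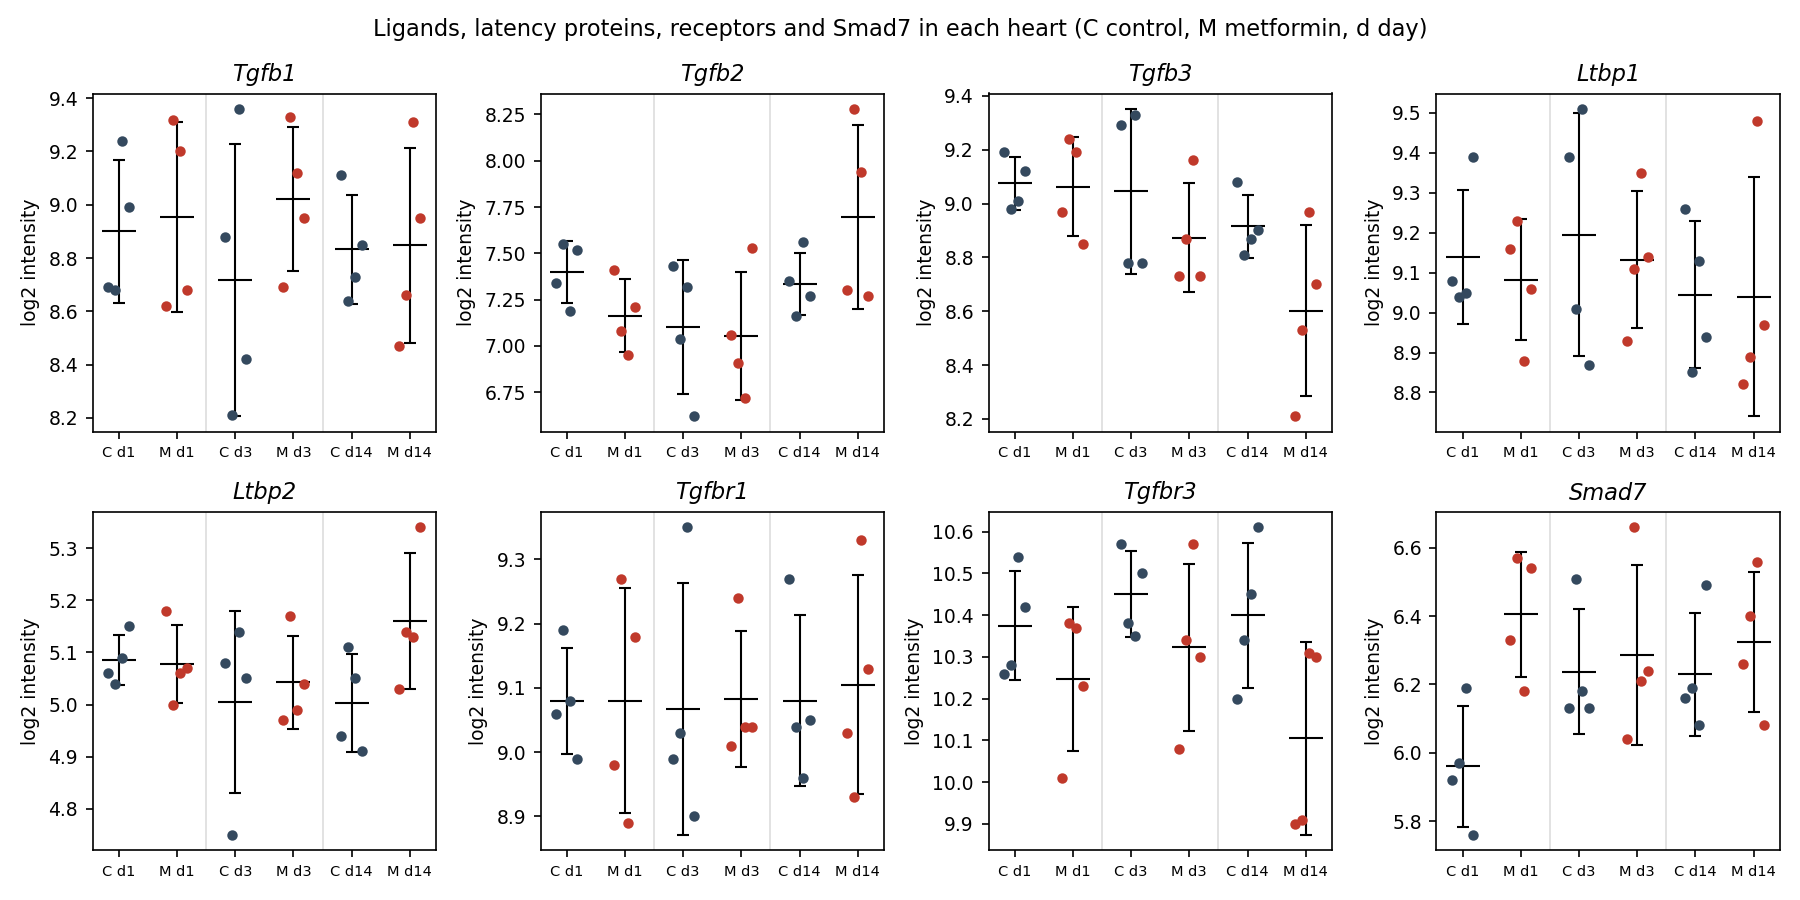
Log2 intensity of the 8 other measured genes on each of the 24 arrays, by day and arm, with group means and SD (n = 4) and a separate scale for each gene. Control and metformin arrays overlap in each gene on each day, and Tgfb2 spreads most in metformin hearts on day 14 (7.27 to 8.28).

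Tgfbr3, or betaglycan, a co-receptor that presents ligand to the signalling receptors, had lower means in metformin hearts on each day without passing the test. On day 14 its levels were 10.20, 10.34, 10.45 and 10.61 in control hearts and 9.90, 9.91, 10.31 and 10.30 in metformin hearts. Replicates 1 and 2 of the metformin group were below all controls, and the other two were within their range. The difference was -0.29 (interval -0.54 to -0.05, limma adjusted p = 0.287), and the mean over the days was -0.18 (interval -0.33 to -0.04, limma adjusted p = 0.139).

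Tgfbr1, the type I receptor kinase, was level across the study. Its 6 group means lay between 9.07 and 9.11, and the mean difference was 0.01 (interval -0.11 to 0.14). A second cluster of the gene ran from 8.77 to 9.25 over the arrays.

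Smad7, an inhibitory Smad that is induced by the pathway and blocks the type I receptor, had a higher mean in metformin hearts on day 1. Its levels were 5.92, 5.97, 6.19 and 5.76 in control hearts and 6.33, 6.57, 6.18 and 6.54 in metformin hearts. The groups overlapped only through metformin replicate 3 and control replicate 3. The difference was 0.45 (SE 0.14, interval 0.16 to 0.73), or 1.36-fold, with an unadjusted p of 0.00359 and a limma adjusted p of 0.497. It was 0.05 on day 3 and 0.10 on day 14, and the F test of a difference that varied with day gave a limma adjusted p of 0.993. That test called 0% of all genes. The Smad7 group means on days 1, 3 and 14 were 5.96, 6.24 and 6.23 in control hearts. In metformin hearts they were 6.41, 6.28 and 6.32, so control day 1 was the lowest group.

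The latent TGF-beta binding proteins Ltbp1 and Ltbp2 were close between arms. Ltbp1 had a mean difference of -0.04 (interval -0.22 to 0.14). Ltbp2, which binds fibrillin rather than latent ligand, had one of 0.06 (interval -0.03 to 0.16), with 0.16 (interval -0.01 to 0.33, limma adjusted p = 0.432) on day 14. Its group means, 5.00 to 5.16, lay near the array medians of 4.68 to 4.95, so its small differences say little.

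**Figure D3:**
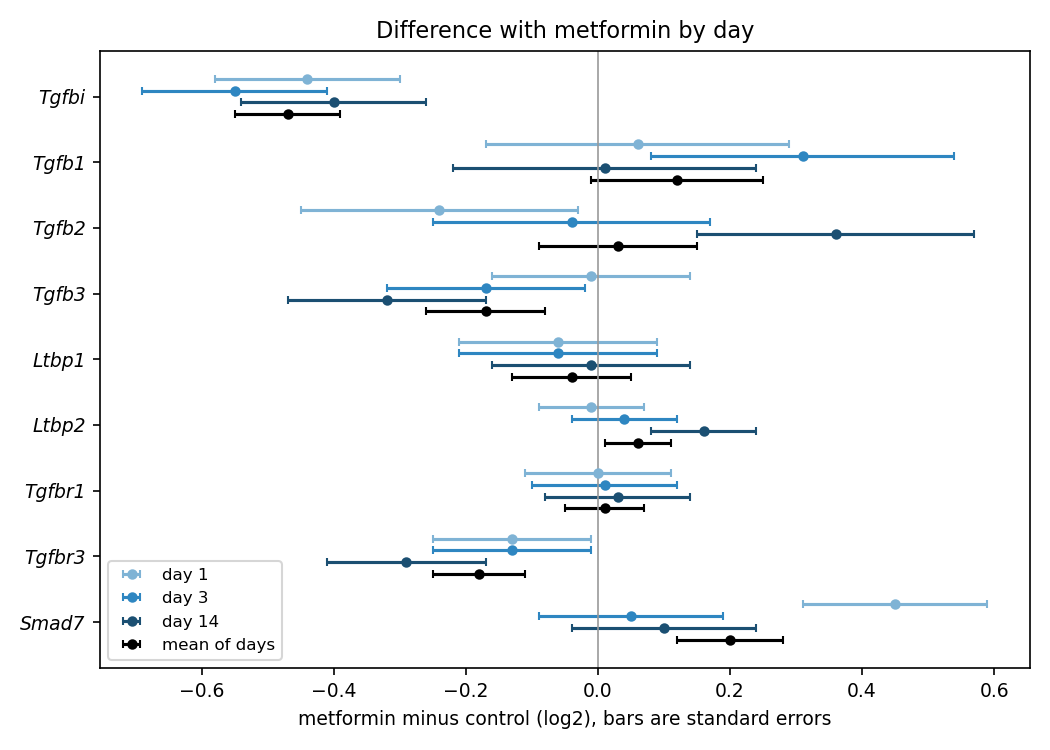
Metformin minus control differences in log2 intensity for the 9 measured genes on days 1, 3 and 14 and over the mean of days, with standard errors as bars. The Tgfbi differences run from -0.55 to -0.40 on single days, and the mean differences of the other 8 genes run from -0.18 to 0.20.

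Across time, 0 of 9 genes were called in control hearts (0.162% of all genes by the F test over days), with 0 at an unadjusted p under 0.05 (8% of all genes). In metformin hearts 0 of 9 were called (0.212%), with 2, Tgfb2 and Tgfb3, at an unadjusted p under 0.05 (11.2% of all genes).

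Among the other genes of the pathway, 4 were called over the mean of days, 3 lower and 1 higher (of all genes, 3.77% were called lower and 0.649% higher). In either direction 4.42% of all genes were called, and the share over the 6 lists together was close to that. The count therefore does not set these lists apart from all genes. Of 16 tested genes of ligand latency and activation 1 was called, Furin, and the median difference was -0.08 against -0.01 over all genes. Of 22 SMADs and their regulators 2 were called, Smad3 and Trim33, both lower (median -0.05). Of 17 BMP and activin ligands and antagonists 1 was called, Inhbb, which was higher. Of 9 other receptors of the family, 22 genes known to be induced by TGF-beta and 10 fasciclin or integrin partners of Tgfbi, 0 were called, with medians of -0.03, 0.03 and -0.02 and 1, 3 and 3 genes at an unadjusted p under 0.05 (18.3% of all genes). On single days 0 genes of the 6 lists were called, although Trim33 passed on day 14 under several alternatives, among them array quality weights. These lists, like the members, were chosen with earlier results of the arrays known.

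Furin, a protease that cleaves the TGF-beta propeptide, fell by 0.27 (SE 0.05, 1.21-fold, limma adjusted p = 0.00322). On day 3 its levels were 9.59, 9.83, 9.67 and 9.57 in control hearts and 9.29, 9.38, 9.52 and 9.29 in metformin hearts, without overlap. On days 1 and 14 the arms overlapped. Shares of all genes without overlap on each day are given above.

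Smad3, which carries the signal to the nucleus, fell by 0.25 (SE 0.05, 1.19-fold, limma adjusted p = 0.00437). On day 3 its levels were 6.29, 6.34, 6.15 and 6.26 in control hearts and 6.13, 6.02, 5.84 and 5.88 in metformin hearts. The arms were apart on days 3 and 14 and overlapped on day 1.

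Trim33, a ubiquitin ligase that binds Smad proteins, fell by 0.14 (SE 0.03, 1.11-fold, limma adjusted p = 0.00601). On day 14 its levels were 10.36, 10.34, 10.30 and 10.39 in control hearts and 10.13, 10.06, 10.23 and 10.09 in metformin hearts. The arms were apart on days 1 and 14. After a second quantile normalization the difference was -0.08 (limma adjusted p = 0.138).

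Inhbb, the activin beta B subunit, rose by 0.25 (SE 0.07, 1.19-fold, limma adjusted p = 0.0322). On day 14 its levels were 5.18, 5.56, 5.23 and 5.19 in control hearts and 5.79, 5.78, 5.65 and 5.61 in metformin hearts, and the arms were apart only then. Its levels over the study, 5.07 to 5.79, lay near the array medians of 4.68 to 4.95. With 16 added to each value before the log, the difference was 0.18. The call was lost in 16 of 39 alternatives, with limma adjusted p values from 0.0128 to 0.141 over the 39.

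**Figure D4:**
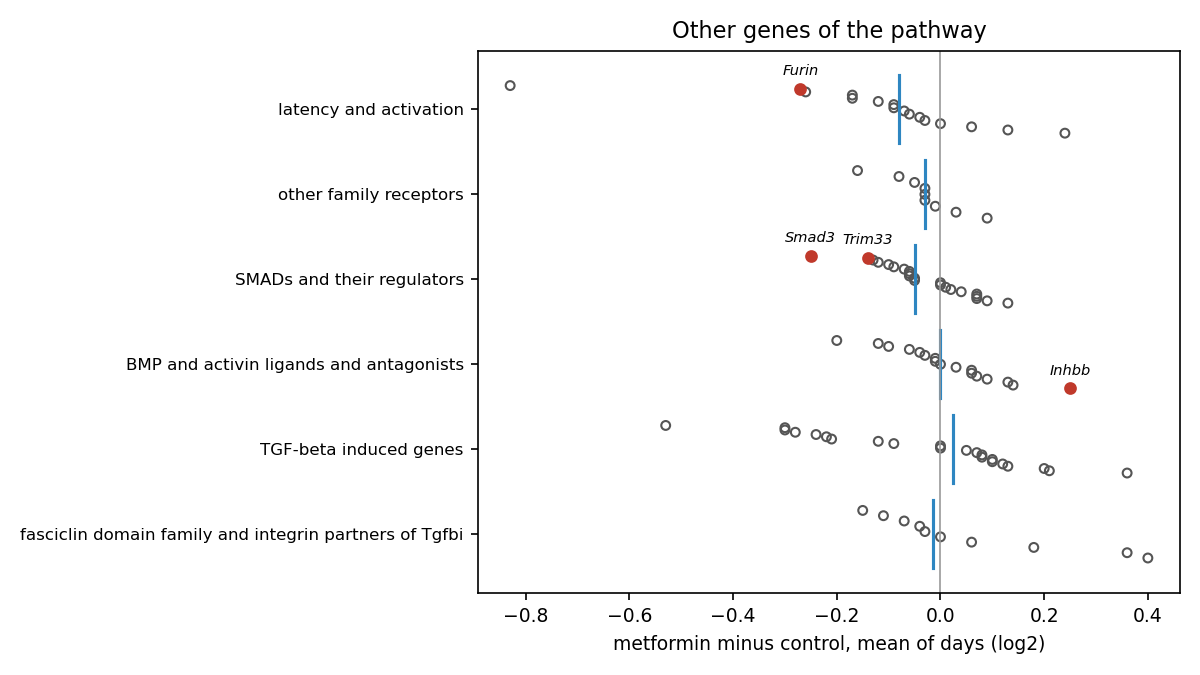
Metformin minus control differences in log2 intensity, mean of days, for the tested genes of the 6 pathway lists, 1 point per gene, with each list's median as a vertical blue line and called genes in red. The 4 called genes are named, and the list medians lie close to the median of all genes (-0.01).

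The start regions of Smad3 and Trim33, which passed the test, are shown. Furin and Inhbb passed it too. Furin had no window here, and the Inhbb window, with 6 GC boxes, is not shown. The windows of Smad3 and Trim33 are from RefSeq and of the same length and build. Smad3 is at chr8:73132275-73132574 on the minus strand and Trim33 at chr2:193500577-193500876 on the plus strand, with GC boxes in capitals.

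Smad3: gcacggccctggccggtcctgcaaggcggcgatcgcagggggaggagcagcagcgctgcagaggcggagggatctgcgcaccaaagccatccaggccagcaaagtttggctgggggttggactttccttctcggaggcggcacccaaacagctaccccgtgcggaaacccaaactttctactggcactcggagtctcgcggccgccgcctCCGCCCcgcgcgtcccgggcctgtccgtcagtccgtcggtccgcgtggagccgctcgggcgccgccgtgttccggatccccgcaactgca
Trim33: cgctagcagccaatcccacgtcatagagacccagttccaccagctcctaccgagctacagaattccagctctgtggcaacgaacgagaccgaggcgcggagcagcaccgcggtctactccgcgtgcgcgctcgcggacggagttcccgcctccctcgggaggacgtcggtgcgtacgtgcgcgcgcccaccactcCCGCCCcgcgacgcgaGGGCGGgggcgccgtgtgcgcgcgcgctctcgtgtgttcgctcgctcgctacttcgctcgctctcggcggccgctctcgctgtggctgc

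In the 3 lists with 0 called genes, the 2 genes with the smallest p are given. Acvr1, a type I receptor for BMPs, differed by -0.16 (limma adjusted p = 0.153) and Bmpr2, a type II receptor, by -0.08 (limma adjusted p = 0.519). Among induced genes, Junb, an AP-1 subunit, differed by -0.28 (limma adjusted p = 0.112) and Bhlhe40, a transcriptional repressor, by -0.30 (limma adjusted p = 0.15). Itga2, a collagen receptor subunit, differed by 0.40 (limma adjusted p = 0.146) and Itga3, a laminin receptor subunit, by -0.11 (limma adjusted p = 0.237). From day 1 to day 14 the induced genes had a median difference of -0.35 in metformin hearts (18 of 22 below 0). In control hearts it was -0.18 (17 of 22 below 0), with 0 called in either arm. By limma, 9 of 22 had an unadjusted p under 0.05 in metformin hearts (11.9% of all genes) and 4 of 22 in control hearts (11.1%). The median over all genes rounded to at most 0.01 in size in both arms. The mean fibroblast marker level went from 10.96 to 10.57 in metformin hearts and from 10.78 to 10.70 in control hearts. The differences of the induced genes with that level as a covariate are not given here. Col1a1, a chain of fibrillar collagen that is also on the fibroblast list, differed by -1.35 in metformin hearts (limma adjusted p = 0.119) and by -0.79 in control hearts (limma adjusted p = 0.435). Ccn2, another gene of the induced list, went the other way, by 1.06 in metformin hearts (limma adjusted p = 0.309) and 0.46 in control hearts (limma adjusted p = 0.735).

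From heart to heart, after group means were removed, Tgfb3 varied with Tgfb1 and with Ltbp1. Over 24 arrays Tgfb1 and Tgfb3 had r = 0.80 and rho = 0.83 (permutation test, adjusted over 36 pairs, p = 0.0158 and 0.0126), and r was 0.76 without the 2 farthest arrays. Tgfb3 and Ltbp1 had r = 0.78 and rho = 0.73 (permutation test, adjusted p = 0.0272 and 0.043), and r was 0.76 without the 2 farthest. The other 34 pairs did not pass, and 0 pairs passed once arrays were centred on their medians or without metformin day 14 replicate 3. Tgfbi had r between -0.26 and 0.39 with the other genes. Arrays share their depth of signal and cell makeup, whose part in these relations was not tested.

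**Figure D5:**
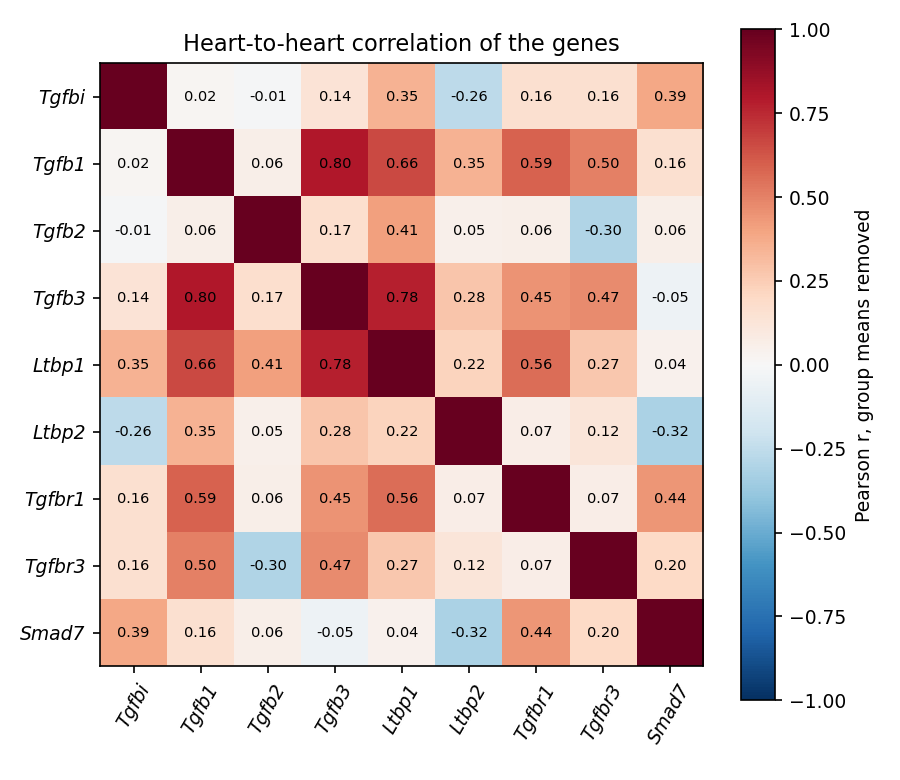
Pearson r between each pair of the 9 measured genes over 24 arrays, from log2 intensity with group means removed, with the colour scale running from -1 (blue) to 1 (red). The cells for Tgfb1 with Tgfb3 (0.80) and Tgfb3 with Ltbp1 (0.78) hold the highest values, and the row of Tgfbi runs from -0.26 to 0.39.

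As a description over 24 arrays, the tested genes most like Tgfbi were Abr (r = 0.91), Tmtc4 (0.88), Wbp1 (0.88), Atp6ap1l (0.85) and Slc49a4 (0.84). All had lower means in metformin hearts on each day. That ranking kept the group differences, and Tgfbi was chosen for its lower level in metformin hearts. Lower means among these genes are thus favoured by the ranking itself, and nothing is read from them. With group means removed the genes most like Tgfbi were Acer3 (0.82), Kat7 (0.81), Ptpn6 (0.80), Cbx5 (0.80) and Poglut3 (0.79). The 2 sets shared no gene.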

How the data were processed

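The deposited values are linear intensity values, 1 per array and transcript cluster, that the authors normalized. Per the submitters' processing notes the method was RMA; software and settings are not given in these sources. The highest value per array lay between 999433 and 999974, so the scale is not the scanner's and fold changes may be stretched. The planned tests assumed log2 values, so log2 of the deposited values was taken first. Of 68842 clusters, 23446 had 1 gene symbol in the platform annotation, 505 several and 44891 none. Symbols were updated through RefSeq GRCr8, used for names and promoter sequence. The brightest cluster stood for a gene, and a gene was tested if it exceeded the array median on 4 or more arrays.

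Differences were fitted with limma 3.58.1 in R 4.3.3, 1 mean per group over 24 arrays, with Benjamini-Hochberg adjustment over 16031 genes and calls at an adjusted p under 0.05. Correlations used 100000 permutations within groups. The fit was tested on simulated data. The titles number the arrays of a group as biological replicates, and the labels tie them to nothing further. The p values therefore rest on the spread between these samples within groups. The number of arrays limits precision. Members and lists were chosen with earlier results of these data known. Named genes were the members, the 5 genes most like Tgfbi by each measure, and, per list, up to 4 called genes or the 2 with the smallest p. Alternatives covered normalization, filters, clusters, weights, marker covariates and left-out arrays; the fibroblast, macrophage and endothelial covariates were chosen after seeing the data.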

Additional observations from a re-analysis of the deposited data

Results flagged for a closer look

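In 3 of 54 groups of 4 arrays, 1 array stood far from the other 3 for a gene by Dixon's test, which marks about 1 group in 20 by chance. Tgfbr1 was 9.24 in 1 metformin heart on day 3, against 9.01 to 9.04 in the others. Smad7 was 6.51 in 1 control heart on day 3, against 6.13 to 6.18. Ltbp1 was 9.39 in control day 1 replicate 4, against 9.04 to 9.08, and that array was also high in skeletal muscle markers (8.29).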

How the results depend on the processing

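The count of members called was 0 in every comparison under each alternative run, other than Tgfb3 from day 1 to day 14 in metformin hearts with the macrophage covariate. Of 3431 uncalled member differences under alternatives, 178 had the opposite sign, 11 of them with a main difference of at least 0.1. The Tgfbi difference ran from -0.49 to -0.25 on day 1, -0.65 to -0.38 on day 3 and -0.47 to -0.31 on day 14 over 40 alternatives each, and the mean from -0.50 to -0.37 over 39. The count of correlated pairs was 2, was 0 after arrays were centred on their medians, and ran from 0 to 4 with 1 array left out: 0 without metformin day 14 replicate 3 and 4 without metformin day 1 replicate 3, and 1 without control day 14 replicate 1, metformin day 1 replicate 2, metformin day 3 replicate 3 or metformin day 14 replicate 2. The cause was not tested. Over all genes, 708 were called for the mean of days (104 higher, 604 lower), 482 after centring (152 higher, 330 lower), 384 after quantile normalization (119 higher, 265 lower), 438 after cyclic loess and 343 with the erythroid covariate. Counts were above the main one with array weights (897), with the macrophage (845), fibroblast (929) and endothelial (1027) covariates and, among others, without metformin day 14 replicate 3 (827). Correlations of same-numbered arrays ran from -0.148 to 0.11 between arms of a day and from -0.254 to 0.337 between days of an arm, where metformin replicate 1 was positive throughout (0.147 to 0.194). Not every pair exceeded 0.1, so the replicate block was not used; with it 378 genes and 0 members were called, and Inhbb was lost (adjusted p = 0.069). With the macrophage covariate, Postn, Col1a1, Col1a2, Col3a1 and Mmp14 were called across metformin days, and Acvr1 over the mean of days. With the fibroblast covariate Stab1 and Itga2 were called over the mean of days, and with the endothelial covariate Itga2. These covariates were chosen after seeing the data. The share of all genes called across metformin days with the macrophage covariate is not given here, so nothing is read from those calls.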
